A study of Mus musculus with 4 samples.

Results

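The sub-epithelial mesenchyme of the mouse mammary rudiment at E15.5 is the tissue next to the epithelial bud. Here it was taken as 95 cells of the 816 cells kept at that stage, out of 1630 kept cells in the whole series. Its members were chosen by measured counts. A kept cell had at least 5000 UMIs (unique molecular identifiers, each standing for 1 captured transcript) and at most 6% of them from mitochondrial genes. A mesenchymal cell had at least 10 UMIs of Col1a1, Col1a2 and Col3a1 together, and more than 2 times as many of these as of Epcam, Krt8, Krt18, Krt5, Krt14 and Krt15. A non-cycling cell had fewer than 10 UMIs of Top2a, Mki67, Cenpf, Hmmr, Nusap1 and Birc5. Of the 279 mesenchymal cells at E15.5, 199 were non-cycling. Sub-epithelial cells were those with more UMIs of Crabp1 and Lef1 than of Cdkn1c and Plagl1. They were compared with the 100 cells of the reverse order, the dermal side of the gate, and 4 cells with equal sums were left out.

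The study sequenced single cells sorted from mammary tissue of female wild-type C57B6 mice (of the N substrain in the study's methods) at 4 stages from E13.5 (E for embryonic day) through E14.5 and E15.5 to birth (P0), with 1 library for each. Tissue of several animals was pooled, and embryonic buds were dissected with the mesenchyme around them. Blood and endothelial cells (positive for CD45, Ter119 or CD31) and sorted doublets were excluded, and cells with and without EpCAM were taken. No value therefore has a replicate, stage and library cannot be told apart, and no test was made. The cells were dissociated, so their position beside or away from the epithelium was not measured.

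The mammary bud is an ingrowth of the embryonic skin, and the mesenchyme around it condenses into concentric layers that carry hormone receptors. Parathyroid hormone-related protein from the epithelium and canonical Wnt signalling are known to shape this mesenchyme. In canonical Wnt signalling, a Wnt ligand bound to Frizzled and Lrp receptors stabilises β-catenin, which acts on its targets with Tcf and Lef factors.

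Members and comparison cells were of like median depth, but the comparison cells reached lower. The lower quartiles were 20026.5 and 15699.8 UMIs, and the lowest cells had 11421 and 5021. The members had a median of 23886 UMIs and 4709 genes per cell, and the cells of the reverse order had 21520 UMIs and 4281.5 genes. Summed over cells, the classes held 2275046 and 2093175 UMIs. Mitochondrial genes made up 4.55% of the members' UMIs and 3.98% of the others', and ribosomal protein genes 26.0% and 23.6%. Levels are given as CPM, the counts per 1e+06 UMIs of all cells of the class. A range in parentheses is an exact 95% interval (Poisson for a level, conditional binomial for a ratio, binomial for a share), and it covers counting error only.

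In the members, Crabp1, which binds retinoic acid in the cytoplasm, was at 887 CPM, against 187 CPM in the cells of the reverse order. The epithelial cells of the library, described below, held it at 2.19 CPM. Lef1, a nuclear partner of β-catenin, was at 133 and 37.3 CPM, and at 190 CPM in the epithelial cells. Cdkn1c, an inhibitor of cyclin-dependent kinases, was at 185 and 2201 CPM, and Plagl1, a zinc finger transcription factor, at 18.9 and 550 CPM. These values chose the cells and describe them. All 95 members had a UMI of Crabp1, 85 had Lef1, 90 had Cdkn1c and 29 had Plagl1, and in 94 Crabp1 exceeded Lef1, so that Crabp1 carried most of the upper sum. The classes meet in a continuous range. The sums differed by at most 5 UMIs in 11 members and in 12 cells of the reverse order. Crabp1 was at 397 CPM in those 11 members and at 354 CPM in those 12 cells, and Cdkn1c at 227 and 571 CPM.

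**Figure D1:**
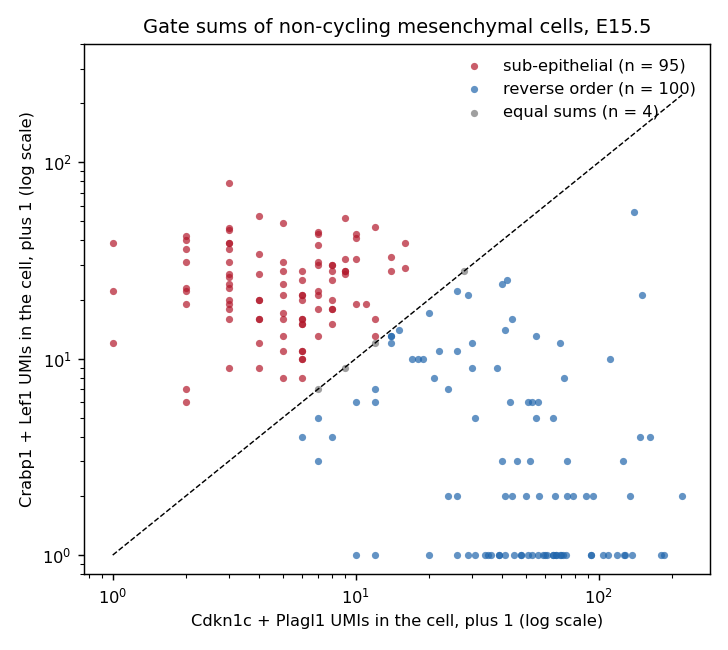
Each point is 1 non-cycling mesenchymal cell of the E15.5 library, with its Cdkn1c and Plagl1 UMIs on the x axis and its Crabp1 and Lef1 UMIs on the y axis, each plus 1 on a log scale. The 95 members lie above the dashed line of equal sums, the 100 cells of the reverse order below it and 4 cells on it, and the median difference between the sums was 17 UMIs in the members and 44.5 UMIs in the others.

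Each pair of gate genes was also read in cells that the other pair had chosen. Where Crabp1 exceeded Cdkn1c (96 cells against 103), Lef1 was 3.13 times as high (2.47 to 3.99) and Plagl1 was at 0.0387 of its level in the other cells (0.0283 to 0.0518). Where Lef1 exceeded Plagl1 (86 cells against 88), Crabp1 was 3.82 times as high (3.41 to 4.28) and Cdkn1c was at 0.104 (0.0944 to 0.113). Of the 96 cells 94 were members by the full rule, and of the 86 cells 75 were.

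The label was read against the 3 markers that the gate did not use. Vcan and Esr1 were picked by the study in this same library, and Wif1 is not named in its text. The study also stained sections at E15.5. It reported Esr1 and Lef1 protein and Vcan and Crabp1 transcripts in mesenchyme around the bud. Plagl1 protein and Cdkn1c transcripts were reported farther from it. The direction of Vcan, Esr1 and Wif1 in the counts here describes the cells and is no independent check. Vcan, which encodes the matrix proteoglycan versican, was at 1272.5 CPM in the members and at 576 CPM in the cells of the reverse order, a ratio of 2.21 (2.07 to 2.37). Wif1, a secreted protein that binds Wnt ligands, was at 188 and 40.6 CPM, a ratio of 4.63 (3.66 to 5.92). Esr1, the estrogen receptor ERα, was at 84.0 and 38.7 CPM, a ratio of 2.17 (1.66 to 2.85). All 3 were at least 2-fold higher in the members, as were 3.21% of all genes measured. Vcan was also frequent in the comparison cells, where 90% had a UMI, and the cells of both classes overlapped for each marker. Esr1 had a UMI in 74.7% of members and in 38% of the others. The 526 cells of the library with an epithelial gate (the same limits with the gene sets exchanged, median 24718.5 UMIs) had one in 30.6%. With every cell thinned to 5000 UMIs these shares were 28.4%, 15% and 9.51%. Wif1 had a UMI in 85.3% of members, 34% of the others and 3.42% of the epithelial-gated cells, and 52.6%, 21% and 0.951% after thinning. With Lef1 set against Plagl1 alone, the Esr1 ratio was 3.37, and with Crabp1 set against Cdkn1c alone it was 1.99.

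The Wnt feedback genes Axin2, Nkd1 and Notum, Bmp4 and the basement membrane collagens Col4a1 and Col4a2 were higher in the members than in the cells of the reverse order. Lower were 21 of 44 measured matrix glycoproteins and proteoglycans, the nuclear factor I genes Nfia and Nfib, and 8 of 19 measured imprinted genes. Across the 7237 genes with at least 50 UMIs over both classes, gate genes left out, the median log2 ratio of members over cells of the reverse order was 0.08 (quartiles -0.23 and 0.34). At least 2-fold higher in the members were 232 genes (3.21% of those measured), and at least 2-fold lower were 335 (4.63%). A gene is called higher or lower below only when past this limit of 2-fold. Counts in the lists below are to be read against these shares of all genes measured, 3.21% higher and 4.63% lower. The genes were not used by the gate, but they were measured in the same cells, so the differences describe these classes and do not test them.

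Genes with at least 200 UMIs over both classes were ranked by the ratio with 10 CPM added to each level, which ranks low genes less far out. The first 12 on the higher side were Thy1, Timp3, Wif1, Trps1, Polr2l, Crispld2, Tanc1, Tgfbi, Mid1ip1, Mllt3, Frem1 and Fmod. Thy1, a cell surface glycoprotein of fibroblasts and neurons, was at 189 CPM in the members and 34.4 CPM in the others, 5.51 times as high (4.28 to 7.17). Its median over cells was 3 UMIs in the members, with a range from 0 to 18, and 0 UMIs in the others, with a range from 0 to 10. Timp3, an inhibitor of matrix metalloproteinases, was at 182 and 35.4 CPM, a ratio of 5.15 (4.01 to 6.68). Thy1 had a UMI in 87.4% of members, 27% of the others and 20.2% of epithelial-gated cells (53.7%, 14% and 5.70% after thinning). The classes overlapped for both genes, since some members had none. Trps1, a GATA-type zinc finger repressor of skin appendages and cartilage, was at 106 and 26.3 CPM, a ratio of 4.03 (3.00 to 5.51). Crispld2, a secreted protein of the mesenchyme, was at 105 and 28.2 CPM, and Frem1, a basement membrane protein of the skin, at 80.9 and 24.4 CPM. Fmod, the collagen-binding proteoglycan fibromodulin, was at 94.5 and 30.6 CPM. Polr2l, a shared subunit of the RNA polymerases, owed its place to few cells. One member held 101 of its 266 UMIs, and without that cell the ratio was 2.33 in place of 3.71.

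Several of these genes were also high in epithelium. The epithelial-gated cells held Trps1 at 105 CPM, Timp3 at 133 CPM, Mllt3 at 75.1 CPM and Tanc1 at 48.9 CPM. Crispld2, Frem1, Fmod, Tgfbi and Mid1ip1 were there at 1.34, 1.06, 2.82, 2.47 and 2.26 CPM. Among the lowest genes, Fst was at 1257 CPM in the epithelial-gated cells and Gpc3 at 248 CPM.

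The 12 genes ranked lowest in the same way were Nrk, Agtr2, Itm2a, Aspn, Ogn, Ebf1, Fst, Dcn, Fibin, Sfrp2, Gpc3 and Klf4. Nrk, a kinase encoded on the X chromosome, had 4 UMIs in the members and 528 in the others, 1.76 against 252 CPM. Agtr2, a receptor for angiotensin II, had 5 and 521 UMIs. Ogn and Aspn, proteoglycans of the small leucine-rich family, were at 16.3 and 1.76 CPM in the members and at 402 and 199 CPM in the others. Nrk, Agtr2 and Aspn were near 0 in the members, and Ogn had a UMI in 17.9% of them. In the cells of the reverse order they were not uniform, since 49% had a UMI of Nrk, 61% of Agtr2, 46% of Aspn and 76% of Ogn. Dcn, the proteoglycan decorin, was at 229 CPM in the members, of which 76.8% had a UMI, and at 1968 CPM in the others, all of which had one. Of the epithelial-gated cells 19.01% had one, and after thinning the shares of the 2 mesenchymal classes were 47.4% and 95%. Its median was 2 UMIs in the members and 33 UMIs in the others, and the ranges, 0 to 31 and 1 to 131, overlapped. Among the cells within 5 UMIs of the boundary, Dcn was at 236 CPM in the 11 members and 737 CPM in the 12 others. In the same cells Wif1 was at 109 and 102 CPM and Thy1 at 99.2 and 59.7 CPM. As ratios these gaps were smaller than over all cells.

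**Figure D2:**
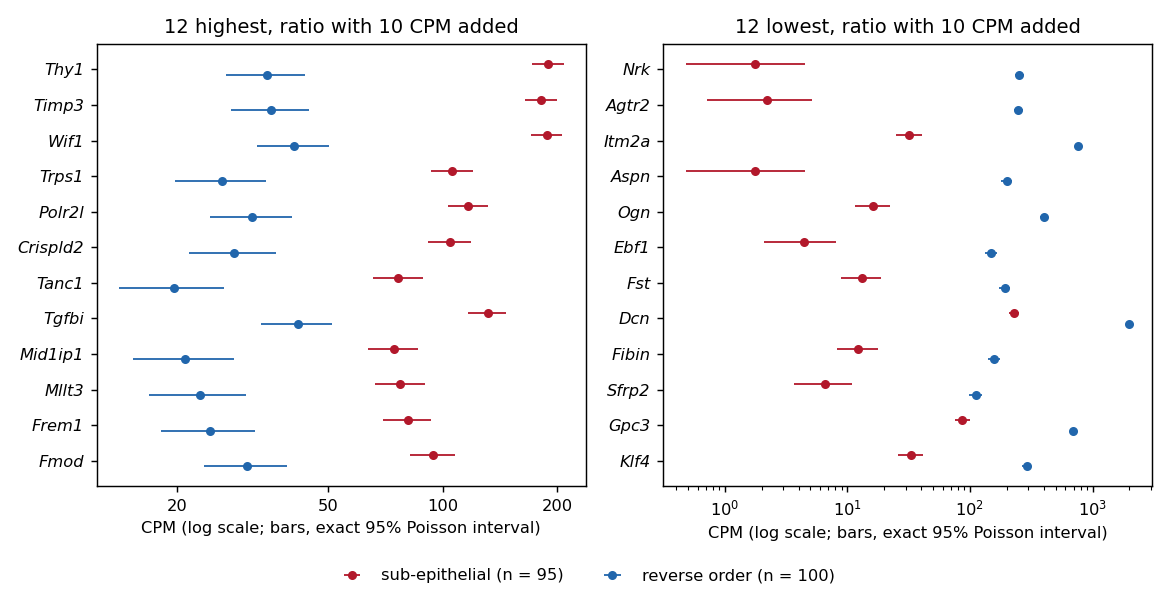
Levels of the 12 genes ranked highest (left) and the 12 ranked lowest (right) by the ratio with 10 CPM added, in CPM on a log scale, with exact 95% Poisson intervals, in 95 sub-epithelial cells and 100 cells of the reverse order of 1 library. The genes were chosen by this ratio in the same cells, so intervals that lie apart follow from the choice. The intervals cover counting error only. The lowest levels are those of Nrk and Aspn in the members, both at 1.76 CPM.

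In GENCODE M21 on GRCm38 all of these are protein-coding genes. Thy1 lies at chr9:44043384-44048579 and Crabp1 at chr9:54764748-54773110, both on the plus strand. Wif1 lies at chr10:121033960-121100650 and Lef1 at chr3:131110471-131224356, both on the plus strand. Aspn (chr13:49544443-49567565) and Ogn (chr13:49608046-49624501) lie in the same region of the plus strand. Nrk, Agtr2, Itm2a and Gpc3 among the lowest genes and Mid1ip1 among the highest are on the X chromosome.

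Among the 3240 genes with at least 100 UMIs in the members, the index of dispersion over the 95 cells (the variance over that expected from sampling at each cell's depth, 1 for sampling alone) had a median of 1.40. It was highest for the nuclear noncoding RNA Malat1, at 223, followed by Tmsb4x, an actin-binding peptide, at 72.0 and Polr2l at 53.8. Fos was at 39.2, Hspa1a at 36.4, and the neuropeptide gene Tac1, which encodes substance P, at 26.3. Tac1 had a UMI in 71 members, and 10 members held 43.4% of its 1135 UMIs. Gal, which encodes the neuropeptide galanin, had an index of 21.1, with a UMI in 29 members and 83.8% of its 197 UMIs in 10 of them. Dkk2, a secreted modulator of Wnt coreceptors, was found in 37 members, with 74.2% of 217 UMIs in 10. In the epithelial-gated cells, 36.7% had a UMI of Tac1, 1.33% of Gal and 1.14% of Dkk2.

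**Figure D3:**
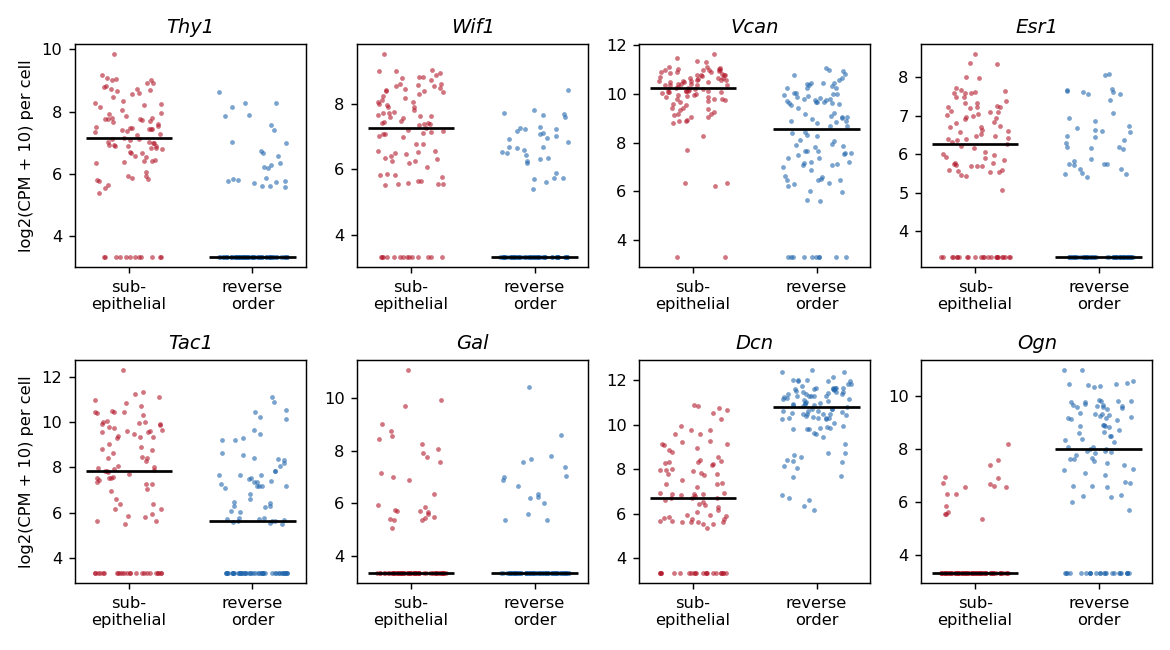
Level of 8 genes in each cell, as log2 of CPM plus 10, in 95 sub-epithelial cells and 100 cells of the reverse order of 1 library, with a line at the median and cells without a UMI in the lowest row. Thy1, Wif1, Vcan and Esr1 sit higher in the members and Dcn and Ogn lower, with overlap in each, and Gal is absent from most cells of both classes.

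The Wnt genes were read by role. Of 13 measured target genes and nuclear factors, 4 were higher (30.8%, against 3.21% of all genes measured) and 0 lower. Axin2, a target and feedback inhibitor of canonical signalling, was at 166 CPM in the members and 58.3 CPM in the others, a ratio of 2.84 (2.31 to 3.52). Nkd1, another feedback inhibitor, was at 135 and 57.8 CPM, a ratio of 2.34 (1.89 to 2.91), and Nkd2 at 25.9 and 6.69 CPM. Tcf7, a partner of β-catenin related to Lef1, was at 20.7 and 3.82 CPM, a ratio of 5.41 (2.53 to 13.2). Tcf7l2, of the same family, was at 117 and 223 CPM, and Ctnnb1, which encodes β-catenin, at 215 and 168 CPM. The list's median log2 ratio was 0.23.

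Genes of the list of Wnt inhibitors moved in both directions. Notum, an enzyme that removes the lipid of Wnt ligands, had 80 UMIs in the members and 4 in the others, a ratio of 18.4 (6.91 to 69.2) whose log2 value of 4.20 ran from 2.49 to 4.96 over the alternatives. Wif1 was higher as given above. Sfrp2 was at 6.59 and 111 CPM, a ratio of 0.0592 (0.0326 to 0.0997), and Sfrp1 at 3.08 and 33.9 CPM, a ratio of 0.0907 (0.0352 to 0.197), and its log2 value of -3.46 ran from -3.72 to -1.66. Both encode soluble Frizzled-related proteins. The other 5 of 9 measured inhibitors were within 2-fold, Dkk2 among them at 95.4 and 57.3 CPM.

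Of 6 measured genes of the Wnt ligand list, which also holds R-spondins and Wls, 1 was higher. Rspo3, an R-spondin that enhances Wnt signalling, was at 55.8 and 14.3 CPM, a ratio of 3.89 (2.60 to 6.01). Wnt5a, a ligand of noncanonical signalling, was at 182 and 160 CPM. Of 10 measured receptors, the R-spondin receptors Lgr5 and Lgr4 were lower, at 5.27 against 27.2 CPM and 11.4 against 37.7 CPM. Fzd4, a Frizzled receptor below the limit of 50 UMIs, had 1 UMI in the members and 27 in the others.

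Among hormone receptors, Esr1 was higher as given above. Pgr, the progesterone receptor, was at 17.1 and 22.0 CPM. Pth1r, the receptor of parathyroid hormone-related protein, was at 54.9 and 47.3 CPM, a ratio of 1.16 (0.885 to 1.53), whose interval holds 1. Ramp3, an accessory protein of calcitonin-family receptors, was at 137 and 50.6 CPM, a ratio of 2.71 (2.17 to 3.41). Of the 11 measured hormone receptor genes, Esr1 and Ramp3 were higher and 0 were lower.

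Growth factor genes of 1 family differed in direction. In the BMP list, 3 of 19 measured genes were higher and 3 lower (15.8% each, against 3.21% and 4.63% of all genes measured). The ligand Bmp4 was at 38.7 and 10.0 CPM, a ratio of 3.86 (2.37 to 6.54), and the ligand Bmp7 at 47.9 and 15.8 CPM, a ratio of 3.04 (2.04 to 4.63). Id4, an inhibitor of basic helix-loop-helix factors, was at 113 and 50.2 CPM. The inhibitor Fst, which encodes follistatin, was at 13.2 and 192 CPM, a ratio of 0.0688 (0.0458 to 0.0998), and the ligand Gdf10 at 4.84 and 58.8 CPM. Msx2, a homeobox gene of skin appendages, had 34 UMIs and 10 UMIs, below the limit of 50.

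Of 16 measured genes of the TGF-β and activin list, 4 were lower and 2 higher (25% and 12.5%, against 4.63% and 3.21% of all genes). The ligand Tgfb2 was at 20.7 and 123 CPM, a ratio of 0.168 (0.120 to 0.229), the ligand Tgfb3 at 7.47 and 20.1 CPM, and the receptor Tgfbr2 at 36.0 and 88.9 CPM. Tgfbi, a secreted protein induced by TGF-β, was at 131 and 41.6 CPM. Inhbb, an activin subunit, was at 97.6 and 45.4 CPM.

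In the FGF list, 4 of 10 measured genes were higher (40%, against 3.21% of all genes measured). All 4 are feedback or target genes of receptor tyrosine kinase signalling. Of these, Dusp6 alone stayed past 2-fold under every alternative, while Spry4 and Etv5 came within it without the limit on cycling genes and Spry4 and Etv1 with every cell thinned. Dusp6, a phosphatase of ERK, was at 118 and 46.8 CPM, a ratio of 2.52 (1.99 to 3.20). Spry4 was at 44.4 and 14.8 CPM, Etv1 at 21.5 and 4.30 CPM, and Etv5 at 18.5 and 8.12 CPM. Spry1 and Spry2, of the same family as Spry4, were at 41.8 and 132 CPM in the members and at 63.1 and 248 CPM in the others. The ligand Fgf7 was lower, at 6.15 and 41.6 CPM. Fgf10, the ligand of epithelial Fgfr2, was below the limit, with 5 UMIs in the members, 4 of them in 1 cell, and 33 UMIs in the others, 2.20 (0.714 to 5.13) against 15.8 CPM.

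Among retinoid genes, 2 of 8 measured were higher. Crabp2, related to Crabp1, was at 44.0 and 20.5 CPM, and Cyp26b1, which degrades retinoic acid, at 16.7 and 5.73 CPM. Crabp2 came within 2-fold with a mitochondrial maximum of 10%, without the limit on cycling genes, with per-cell means and without the deepest 10% of cells. Among hedgehog genes, Sufu, an inhibitor of Gli factors, was higher at 18.0 and 5.73 CPM, and the other 9 of 10 were within 2-fold.

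Of 44 measured glycoproteins and proteoglycans, 21 were lower and 4 higher (47.7% and 9.09% of the list, against 4.63% and 3.21% of all genes measured), and the list's median log2 ratio was -0.92. The most abundant, Sparc, which binds collagen, was at 1435 and 3256 CPM. Lum, the proteoglycan lumican, was at 291 and 1489 CPM, Fn1, which encodes fibronectin, at 189 and 594 CPM, and Fbn1, which encodes fibrillin, at 65.5 and 236 CPM. Thbs2, a thrombospondin, had 1 UMI in the members and 183 in the others, a ratio of 0.00503 (0.000127 to 0.0284). Its log2 ratio of -7.64 ran from -7.75 to -3.80 over the alternatives, the last with every cell thinned. The 4 higher genes were Vcan, Fmod, Crispld2 and Smoc1, the last a BMP-binding matrix protein at 22.0 and 2.87 CPM.

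Collagens differed by type. The fibrillar collagens of the gate, Col1a1, Col1a2 and Col3a1, made up 1.01% of the members' UMIs and 2.79% of the others'. Of 16 other measured collagen genes, 6 were lower, among them Col12a1 at 126 and 639 CPM and Col5a2 at 278 and 905 CPM. Higher were Col4a1 at 106 and 42.5 CPM, a ratio of 2.50 (1.95 to 3.23), and Col4a2 at 65.9 and 27.2 CPM, a ratio of 2.42 (1.77 to 3.35), which encode the chains of basement membrane collagen. Col6a1 and Col6a2 were within 2-fold, at 824 and 1028 CPM in the members. Of 20 matrix proteases, crosslinking enzymes and inhibitors, 8 were lower (40%, against 4.63% of all genes measured). Lox, a crosslinking enzyme, was at 57.1 and 350 CPM and Adamts1, a protease of versican, at 115 and 376 CPM, while Timp3 was higher.

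Of 19 measured imprinted genes (genes read from 1 parental copy), 8 were lower (42.1%, against 4.63% of all genes measured) and 0 higher. The list's median log2 ratio was -0.80. Meg3, a noncoding RNA, was at 1588 and 5312 CPM, a ratio of 0.299 (0.288 to 0.310). Dlk1, a transmembrane ligand of preadipocytes, was at 874 and 3109 CPM, H19 at 527 and 1614 CPM, Mest at 126 and 538 CPM, and Igf2 at 33.4 and 107 CPM. Cdkn1c and Plagl1, which define the comparison cells, are imprinted too, and were left out of this count. Imprinted genes were not all lower. Peg3 was at 953 and 1036 CPM, and Nnat was at 342 and 200 CPM.

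Of 42 measured mesenchymal transcription factor genes, 11 were lower (26.2%, against 4.63% of all genes measured). Higher were 2 (4.76%, near the 3.21% of all genes measured), Trps1 among them. Ebf1, a factor of adipocyte and B cell precursors, was at 4.40 and 148 CPM, a ratio of 0.0298 (0.0141 to 0.0555). Klf4 was at 33.0 and 290 CPM, Klf2 at 65.5 and 406 CPM, and Osr2 at 8.35 and 89.8 CPM. The nuclear factor I genes were lower together, Nfia at 109 and 362 CPM, Nfib at 257 and 717 CPM, and Nfix at 94.9 and 201 CPM, though Nfix came within 2-fold without the limit on cycling genes and with every cell thinned. Tbx3, a T-box factor needed for the mammary line, was at 107 and 65.9 CPM, a ratio of 1.63 (1.31 to 2.02). Of 13 Hox genes, Hoxb9 was higher at 237 and 113 CPM and Hoxd9 at 29.4 and 8.60 CPM, and 0 were lower.

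Signals between cells were read by list. Of 16 measured genes of the PDGF, chemokine and cytokine list, 4 were lower and 2 higher, with a median log2 ratio of 0.13. The chemokine Cxcl12 was at 4.40 and 46.8 CPM, a ratio of 0.0939 (0.0437 to 0.180), and Ccl2 at 76.9 and 296 CPM. In the cells of the reverse order, 1 cell held 202 of 619 UMIs of Ccl2, and 10 cells held 79.5%. The log2 ratio of Ccl2, -1.94, ran from -1.99 to -1.12 over the alternatives. Of 28 guidance and ephrin receptor genes, 8 were lower and 2 higher (28.6% and 7.14%, against 4.63% and 3.21% of all genes measured). Sema3c, a semaphorin, was at 3.08 and 77.9 CPM and the receptor Epha3 at 14.51 and 97.9 CPM, whereas Plxna4, a semaphorin receptor, was at 130 and 47.3 CPM. Of 9 measured genes of the list of neurotrophins and neuropeptides, 3 were higher and 1 lower. Tac1, Gal and Gria2, an AMPA receptor subunit, were higher at 499, 86.6 and 189 CPM against 225, 37.3 and 67.8 CPM. Without the limit on cycling genes Tac1 and Gal came within 2-fold. Gal also did so with a mitochondrial maximum of 10% and with Lef1 set against Plagl1 alone. Gfra2, a coreceptor of neurturin, was lower at 3.08 and 43.5 CPM. Bdnf, a neurotrophin, was at 355 and 204 CPM, a ratio of 1.74 (1.54 to 1.96). Of 11 measured genes of the hair dermal condensate 5 were higher (45.5%, against 3.21% of all genes measured). They were Enpp2, which makes lysophosphatidic acid (447 and 204 CPM), Gal, Bmp4, Rspo3 and Trps1. Sox2 and Sox18, which mark that condensate, were at 0 UMIs in both classes.

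**Figure D4:**
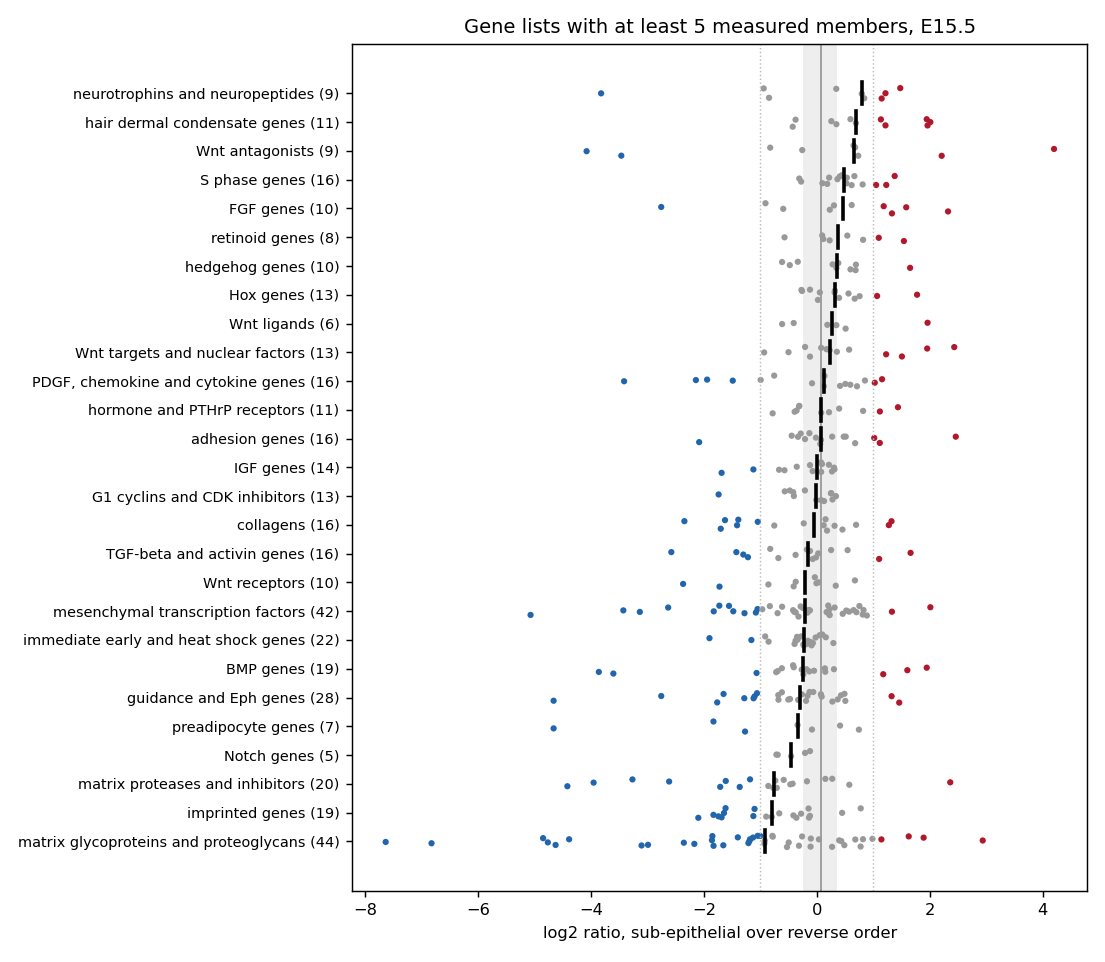
Log2 ratio of members over cells of the reverse order for each measured gene of the 27 lists with at least 5 measured genes (number in parentheses), with a bar at the list's median, red for at least 2-fold higher and blue for at least 2-fold lower. The grey band and line are the quartiles and median of all 7237 genes, and matrix glycoproteins (-0.92), imprinted genes (-0.80) and matrix proteases (-0.75) have the lowest medians.

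Cells in division had been removed by the rule, and this removed more of the sub-epithelial side. Of 158 mesenchymal cells with the sub-epithelial order, 63 were cycling (39.9%, 32.2 to 48.0). Of 115 with the reverse order, 15 were (13.04%, 7.49 to 20.6). Cdkn1c, a gate gene, inhibits the cell cycle, so the order and the cycle are not independent measures. The cycling mesenchymal cells had a median of 34052 UMIs, and the part of depth in these shares was not tested. Among the members, which were below this limit, 16 S phase genes were measured. Of these, 3 were higher than in the others (18.75%, against 3.21% of all genes measured), Mcm5, Rrm2 and Pclaf, and 0 were lower. Mcm5 came within 2-fold with every cell thinned or with Crabp1 set against Cdkn1c alone, and Pclaf without the deepest 10% of cells. Pclaf, a partner of PCNA, was at 36.0 and 13.9 CPM. The 80 cycling mesenchymal cells carried Wif1 at 246 CPM, Esr1 at 80.4 CPM and Trps1 at 97.0 CPM, and Crabp1 at 764 CPM.

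Markers of other cell types were read as whole lists. The epithelial gate genes summed to 50.5 CPM in the members and 114 CPM in the others, and 69.5% and 71% of cells had at least 1 such UMI. Of 16 further epithelial markers, summed at 178 and 252 CPM, 3 were measured, and Sfn and Cldn4 were lower. The most abundant was Cxcl14, at 125 and 133 CPM, and Dsg3, Fermt1 and Krt7 were at 0 in the members. Cdh1, which encodes E-cadherin, was at 3.08 and 9.55 CPM. The 10 endothelial markers summed to 23.3 and 27.7 CPM, with 7 at 0 in the members, Cdh5, Cldn5 and Tek among them, and Kdr the most abundant at 12.7 and 10.0 CPM. The 14 blood and immune markers summed to 3.08 and 6.21 CPM, with 11 at 0 in the members, including Ptprc and the globins, and Csf1r the most abundant. The 12 Schwann cell and neural crest markers summed to 7.91 and 6.69 CPM, with Sox10 and Foxd3 among 7 at 0 and Mitf the most abundant. The 10 skeletal muscle markers summed to 4.84 and 14.8 CPM, with Myod1 and Pax7 among 8 at 0 and Tnnt1 the most abundant. The 12 mural and smooth muscle markers summed to 315 and 376 CPM, and 4 were at 0 in the members. Tagln was the most abundant of them at 230 and 127 CPM, Acta2 was lower at 55.8 and 173 CPM, and Myh11 had 1 and 12 UMIs. The part of such cells in the differences above was not tested. With a stricter limit of more than 10 times as many collagen as epithelial UMIs, all 95 members stayed and 232 genes were higher. Under that limit Sfn and Cldn4, called lower here, came within 2-fold.

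At other stages the same rule found fewer cells. Of the non-cycling mesenchymal cells of E13.5, 17 of 95 were sub-epithelial by this order (17.9%, with an interval of 10.8 to 27.1). The E14.5 library held 4 of 20 (20%, 5.73 to 43.7), and the E15.5 library 95 of 199 (47.7%, 40.6 to 54.9). At P0 it gave 0 of 263, a share of up to 1.14% by 3 counts of the total, with an exact interval that reached 1.39%. The share was highest at E15.5, with an interval that overlaps that of E14.5. Tissue, dissection session and depth differ between libraries, and the enzyme digestion at P0 differed from that of the other stages. At P0 the cells of the reverse order had a median of 8792 UMIs, and held Crabp1 at 6.27 CPM and Lef1 at 1.25 CPM (3 UMIs). Crabp1 in the chosen cells was at 1419 CPM at E13.5, 3402 CPM at E14.5 and 887 CPM at E15.5. Whether the 17 cells are the same layer as at E15.5 was not settled by the markers outside the gate. There Esr1 had 0 UMIs against 24, Wif1 had a ratio of 1.55 (0.560 to 3.72), and Vcan one of 1.46 (1.19 to 1.77). No cell barcode of the members recurred in another library.

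At E13.5, in cells that had no part in choosing the E15.5 genes, the 17 cells were compared with 76 of the reverse order for genes with at least 20 UMIs, of which 6.55% were at least 2-fold higher and 10.4% at least 2-fold lower. Of the 232 genes higher at E15.5, 161 were measured at E13.5, and 103 of them (64.0%) were above 1 there, against 48.8% of all 7744 genes. Of the 335 lower genes, 270 were measured and 201 (74.4%) were below 1, against 51.2% of all genes. Past 2-fold in the same direction were 43 and 118 genes, and in the opposite direction 23 and 13. The gate is the same in both libraries, so the repeat is not independent of its 4 genes.

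Some of the genes named above were higher at both stages. At E13.5 the ratio was 3.09 for Axin2, 4.16 for Nkd1, 5.08 for Tcf7, 5.08 for Bmp4, 10.2 for Enpp2 and 40.6 for Plxna4 (24 UMIs against 3). Lower at both were Sfrp1 (0.112 at E13.5), Sfrp2 (0.231), Ebf1 (0.135), Ogn (0.0752), Nrk (0.0294) and Epha3 (0.0767), and the imprinted genes Mest (0.361), Dlk1 (0.404) and H19 (0.406). Other genes were not higher there, or had too few UMIs to tell. Esr1 had 0 UMIs in the 17 cells and 24 in the 76 others. Its ratio was at most 0.635 computed against 3 counts, with an interval that reached 0.844. Rspo3 had a ratio of 0.994 (0.564 to 1.66), Id4 one of 0.557 (0.232 to 1.16) and Bmp7, with 2 against 20 UMIs, one of 0.508 (0.0576 to 2.09). Timp3 and Tgfbi were at least 2-fold lower. Trps1 had 0 UMIs against 36, a ratio of at most 0.423 against 3 counts, with an interval that reached 0.548. The 17 cells also held the heat shock genes Hspa1a and Hspa1b at 4.67 and 2.64 times the level of the others, against 0.853 and 0.790 at E15.5, and the part of this in the E13.5 values was not tested.

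**Figure D5:**
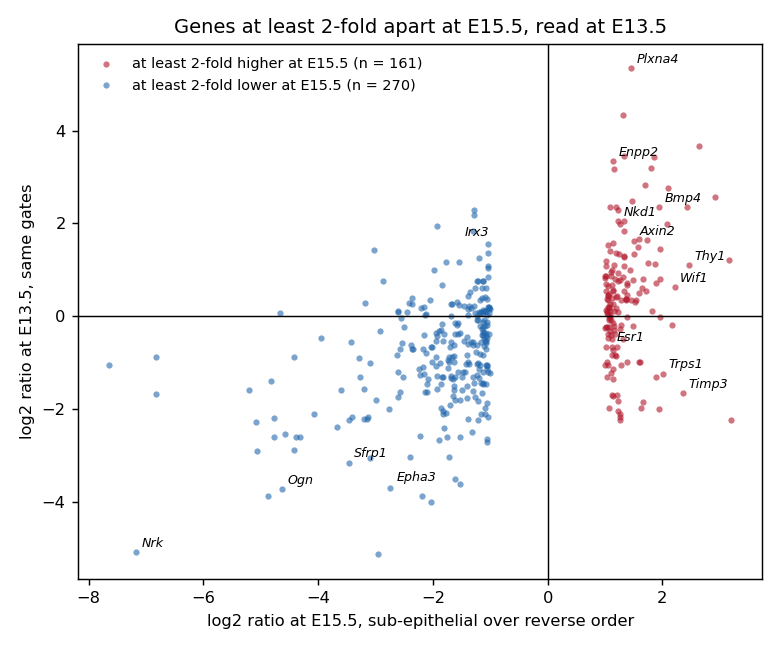
Log2 ratio of sub-epithelial over reverse-order cells at E15.5 (x axis) and at E13.5 with the same gates (y axis), for the 431 genes at least 2-fold apart at E15.5 and measured at E13.5, with a class at 0 UMIs set to 3 counts. Of the 161 higher genes 103 lie above the horizontal line, and of the 270 lower genes 201 lie below it.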

How the data were processed

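For each stage the authors deposited a table of counts, in UMIs per gene and cell barcode and without normalization, made with Cell Ranger on mm10 (version 3.1.0 in the header at E15.5 and 6.0.0 at the other stages). The tables hold 5896 barcodes, of which 2642 are of E15.5, each with at least 500 UMIs. UMIs were summed over the cells of a class, scaled to CPM, and compared as ratios. A class at 0 UMIs was set to 3 counts for a bound. The members, gene lists and limits were chosen with earlier results of these data known. Named genes were the 12 highest and 12 lowest by log2 of the ratio with 10 CPM added, among genes with at least 200 UMIs, the given markers, and from 35 lists the members past 2-fold and the most abundant others. Tcf7l2, Ctnnb1, Pgr, Pth1r, Msx2, Spry1, Tbx3, Fzd4, Fgf10, Cdh1, Myh11, Fos, Hspa1a, Malat1 and Tmsb4x fall outside this rule and were chosen after their values were seen. The E13.5 genes were joined by Ensembl identifier (30406 in common). Doublets had been excluded in the sort, and no caller was run here. The intervals were tested on data simulated from the Poisson model that they assume. That simulation held no extra spread between cells, so it cannot show how well they cover the real counts (median index of dispersion 1.40 in the members). Alternatives were other limits on UMIs, mitochondrial share, epithelial genes, cycling genes and gene counts, other gates, thinning, per-cell means and leaving out the deepest 10% of cells. Python 3.11.15, numpy 2.4.6, scipy 1.17.1, pandas 2.3.3 and matplotlib 3.10.9 were used. No sequence is shown.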

Additional observations from a re-analysis of the deposited data

Results flagged for a closer look

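For 7 of the genes named, the ratio of sub-epithelial over reverse-order cells was at least 2-fold apart in opposite directions at E15.5 and E13.5, with both counting intervals on opposite sides of 1. The difference between the stages was not tested, since each has 1 library and the E13.5 class has 17 cells. Higher at E15.5 and lower at E13.5 were Timp3 (log2 ratio 2.36 and -1.66, with 5 and 80 UMIs at E13.5), Trps1 (2.01, and at most -1.24 computed against 3 counts, with 0 and 36 UMIs and an interval of the ratio that reached 0.548), Polr2l (1.89 and -1.30), Tgfbi (1.66 and -1.85), Cdh2 (1.11 and -1.71) and Crabp2 (1.10 and -1.22, with 20 and 237 UMIs). Irx3, a homeobox factor, was lower at E15.5 (-1.28) and higher at E13.5 (2.19, with 53 and 59 UMIs). At E15.5 Crabp2, Cdh2 and Irx3 came within 2-fold under at least 1 alternative.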

How the results depend on the processing

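The number of members was 95, and between 86 and 102 under the other limits and gates, except that without the limit on cycling genes it was 158. Without that limit 518 genes were at least 2-fold higher, in place of 232, and 516 genes of 741 kept their direction at E13.5, in place of 304 of 431. With every cell thinned to 5000 UMIs, 67 were higher and 139 lower of 2825 measured (2.37% and 4.92%), and 116 of 158 kept their direction at E13.5. With a gene minimum of 20 UMIs, 463 were higher and 672 lower of 9702, and with 200 UMIs 44 and 119 of 3116, with 109 of 149 in the same direction at E13.5. Of the 142 genes past 2-fold that were named or listed, 0 changed sign under the 12 alternatives. The gene minimums of 20 and 200 UMIs, counted among these alternatives, leave a gene's ratio as it is and could not change its sign. Of these 142, 39 came within 2-fold under at least 1 alternative, 20 without the limit on cycling genes and 20 with thinning, and Esr1 with Crabp1 set against Cdkn1c alone. Other genes described above that did so under at least 1 alternative were Nkd1, Crabp2, Id4, Inhbb, Etv1, Etv5, Spry4, Col4a2, Tac1, Gal, Nfix, Hoxb9, Mcm5, Pclaf, Sfn, Cldn4, Acta2, Cdh2 and Irx3. No paired analysis was possible because each stage has 1 library, and none could be left out in turn. With 1 library a stage no difference could be set against a spread between animals, and genes under 50 UMIs over both classes were not called here. Levels moved too, and 54 of 144 genes came more than 1.5 times away from their ratio under at least 1 alternative. The log2 ratio ran from 1.05 to 2.14 for Rspo3 (1.96 as reported), from 1.80 to 3.40 for Bmp4 (1.95), from 2.17 to 3.66 for Tcf7 (2.43), from 2.01 to 4.43 for Smoc1 (2.94), from -3.83 to -1.35 for Tgfb3 (-1.43) and from -3.62 to -2.29 for Fgf7 (-2.76).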
